A study of Mus musculus with 4 samples.

Results

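The genes described here are the 38 mouse genes of the Kcnj, Kcnk, Kcnn, Kcnt, Kcnma1 and Kcnmb families that were taken by symbol from the 25044 entries of the deposited tables: the inward rectifiers, the tandem-pore leak channels, and the calcium- and sodium-activated potassium channels with their auxiliary subunits. All 38 were matched to an Ensembl identifier. RNA sequencing gave their levels in tissue dissected from the parasubthalamic nucleus, a small glutamatergic cell group beside the subthalamic nucleus at the edge of the posterior lateral hypothalamus. The 4 libraries, replicates 1 to 4, came from naive mice of the inbred strain C57BL/6 and formed 1 group. No stressed group and no other tissue is analysed here, age and sex are not given in the labels, and nothing beyond the numbering says whether the replicates are separate animals or pools. Comparisons are therefore between genes within libraries and between libraries, and p-values measure the spread between these samples, which may be technical. In bulk tissue of this kind, fewer cells of a type and less RNA per cell cannot be told apart.

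These channels set the resting potential and the pauses between action potentials. Inward rectifiers (Kir channels) pass potassium best near rest: the G protein-gated GIRK subunits open when inhibitory receptors such as the GABA-B receptor release G protein βγ, the KATP channels open when ATP falls, and the glial subunits clear potassium released by active neurons. Tandem-pore (K2P) channels carry background leak that acid, stretch, lipids and transmitters adjust, and the SK, BK and sodium-activated channels open with calcium or sodium entry and shape the after-potential.

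Values were read as FPKM, fragment numbers scaled to the length of the gene model and to the size of the library, and levels of different genes are compared below on this length-corrected scale. The spacing of low values implied between 19300000 and 20800000 fragments per library, an estimate rather than a count. Several libraries stood apart in regional markers. All 6 hindbrain and spinal cord markers were highest in replicate 1, with a summed level of 19.9 FPKM against 0.0745 to 0.361 in the others, where 5 of the 6 were listed at 0. In replicate 2, 7 of 8 dopamine neuron markers were highest, and their sum was 957 FPKM against 497 to 524. In replicate 3, 8 of 8 thalamus markers were highest, and their sum was 839 FPKM against 381 to 520. Cplx1 alone made up between 354 and 516 FPKM of these sums. The median log2 difference of the thalamus markers from the mean of the other libraries was 2.31 in replicate 3. In replicates 1, 2 and 4 it was -0.66, -1.35 and -0.28. The 5 lateral hypothalamus markers summed to 535, 446, 179 and 764 FPKM in replicates 1 to 4. Of these, 1, 0, 2 and 2 were highest in replicates 1 to 4, and the most abundant, Pmch, was at 325, 257, 54.9 and 429 FPKM. Astrocyte and neuron sums were steadier, at 964 to 1038 and 1809 to 2004 FPKM, and no marker of the neuron, astrocyte, dopamine and thalamus lists was at 0 in any library.

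The channel genes ranged from 84.3 to 0.00880 FPKM in mean level, and a glial channel led them. Kcnj10, the astrocyte inward rectifier, had the highest mean at 84.3 ± 6.30 FPKM (SD, n = 4), followed by the K2P gene Kcnk1 at 37.6 ± 3.79 FPKM and the GIRK gene Kcnj9 at 18.0 ± 5.08 FPKM. Of the 38 genes, 6 had a mean of 10 FPKM or more, 21 lay between 1 and 10, 7 lay between 0.1 and 1, and 4 lay under 0.1. In that order, the bands from 0.1 FPKM up held 17.6%, 61.8% and 20.6% of the channel genes in them. Of all entries at these levels, they held 34.8%, 39.1% and 26.0%. The 34 with a mean of 0.1 FPKM or more, the filter for every test here, had a median of 3.10 FPKM, against 4.90 FPKM for all 17630 entries that passed it. Of the 37 neighbouring pairs in the order of means, 4 had ranges that did not overlap: Kcnj10 above Kcnk1, Kcnk1 above Kcnj9, Kcnj16 above Kcnk2, and Kcnk6 above Kcnmb1. Only 9 of the 37 pairs kept their order in all 4 libraries, so most neighbours in the order do not differ beyond their spread.

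**Figure D1:**
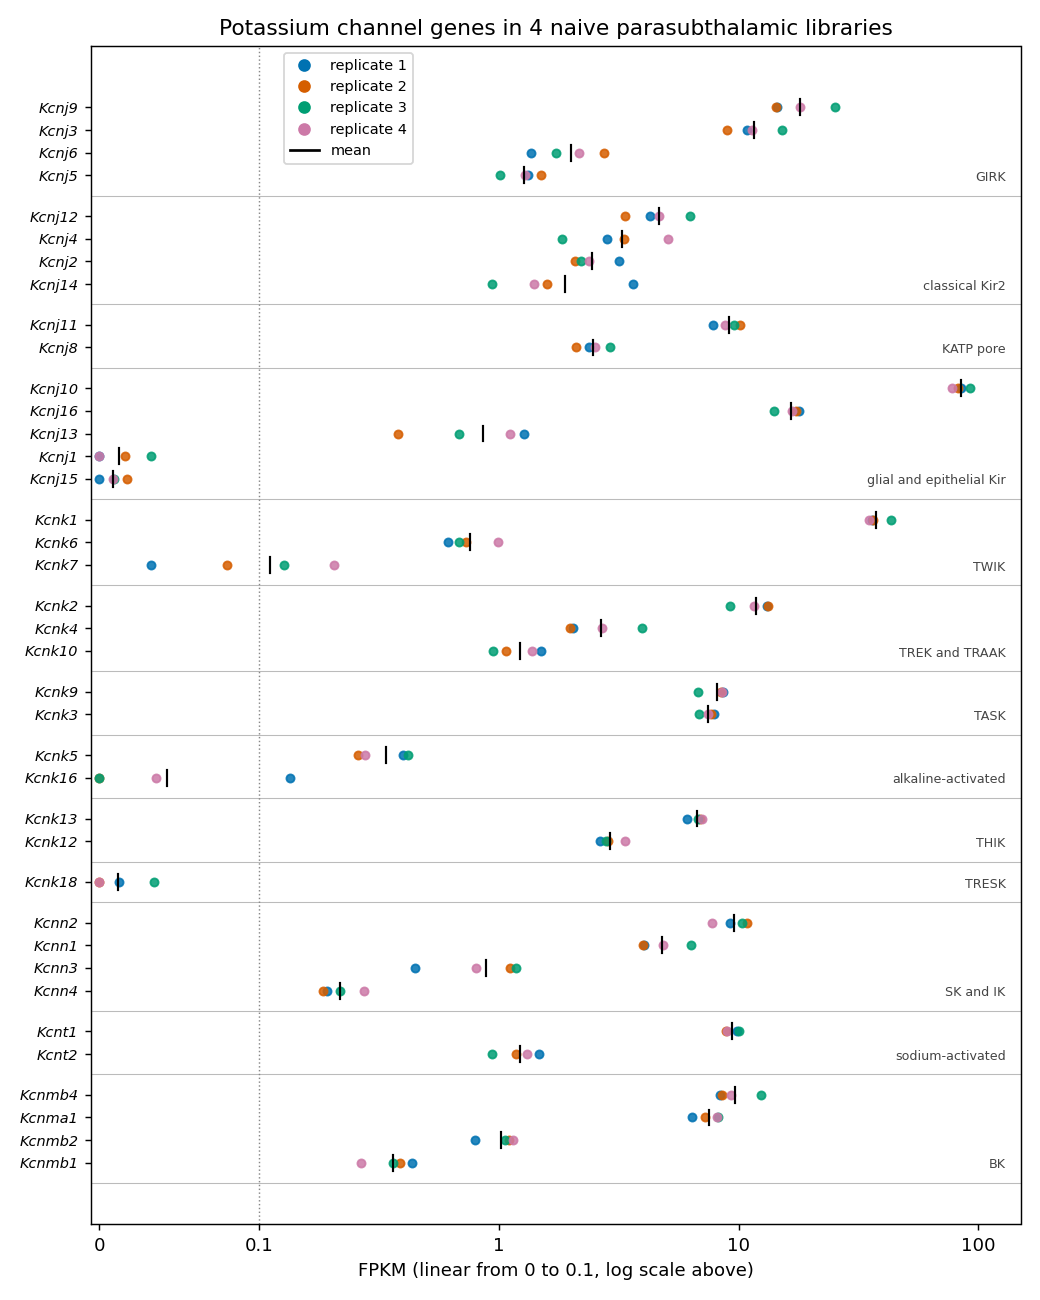
FPKM of the 38 channel genes (x axis, linear from 0 to 0.1 and logarithmic above) in each of the 4 libraries (coloured points, with the mean as a black line), arranged by channel class. Kcnj10 at 84.3 and Kcnk1 at 37.6 FPKM lie to the right of all others, and Kcnk16, Kcnj1, Kcnk18 and Kcnj15 lie under the dotted filter line at 0.1 FPKM by their means.

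Among the GIRK subunits, which assemble as tetramers, the transcripts of Kcnj9 (GIRK3) and Kcnj3 (GIRK1) made up most of the class, and Kcnj6 (GIRK2) and Kcnj5 (GIRK4) were minor. Kcnj9 was measured at 14.5, 14.4, 25.2 and 18.0 FPKM in replicates 1 to 4, and Kcnj3 at 10.8, 8.94, 15.2 and 11.4 FPKM. Both were highest in replicate 3 and lowest in replicate 2, and Kcnj9 was above Kcnj3 in each library. Kcnj6, a subunit that can form channels by itself, was at 1.37, 2.75, 1.73 and 2.17 FPKM, highest in replicate 2. Kcnj5, best known from the atrium of the heart, was at 1.32, 1.498, 1.01 and 1.29 FPKM. As shares of the summed FPKM of the class, Kcnj9 took 54.3% ± 3.10, Kcnj3 35.2% ± 2.59, Kcnj6 6.36% ± 2.64 and Kcnj5 4.10% ± 1.33 (SD, n = 4). Without length correction, that is with values multiplied by the longest annotated transcript, the shares of Kcnj9 and Kcnj3 were 48.1% and 42.2%.

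The promoters of the 2 main GIRK genes, which were both highest in replicate 3, and of Kcnj10, which lies beside Kcnj9, are shown because these 3 genes carry the neuronal and glial results below. The sequences are the 250 bases before the annotated start from RefSeq (build GRCm38.p6), 5′ to 3′ on the strand of the gene, with capitals for TATAAA and for the GC box GGGCGG on either strand.
Kcnj9, chr1:172329323-172329572, minus strand: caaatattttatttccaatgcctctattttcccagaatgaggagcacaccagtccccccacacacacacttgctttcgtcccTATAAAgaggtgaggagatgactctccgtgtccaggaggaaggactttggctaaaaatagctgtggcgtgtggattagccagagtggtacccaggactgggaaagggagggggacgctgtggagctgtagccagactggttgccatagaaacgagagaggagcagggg
Kcnj3, chr2:55435720-55435969, plus strand: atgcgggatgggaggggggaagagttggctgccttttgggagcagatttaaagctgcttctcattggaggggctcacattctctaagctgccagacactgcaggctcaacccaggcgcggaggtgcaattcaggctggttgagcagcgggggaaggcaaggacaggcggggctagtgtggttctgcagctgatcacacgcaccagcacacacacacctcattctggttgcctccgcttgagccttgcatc
Kcnj10, chr1:172340960-172341209, plus strand: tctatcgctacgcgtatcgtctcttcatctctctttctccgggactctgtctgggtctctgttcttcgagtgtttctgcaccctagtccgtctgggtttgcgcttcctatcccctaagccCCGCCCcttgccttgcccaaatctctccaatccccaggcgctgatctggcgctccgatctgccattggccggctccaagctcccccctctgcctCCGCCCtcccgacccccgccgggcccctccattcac
The Kcnj9 window held 5 CpG pairs and 1 TATAAA that began 168 bases before the start. The Kcnj3 window held 7 CpG and neither motif, and that of Kcnj10 held 17 CpG and 2 GC boxes. Over all 32851 windows of this length in the table, the median was 6 CpG, 32.7% held GGGCGG and 12.4% held TATAAA. RefSeq windows were found for 31 of the 38 genes, 40 windows in all, of which 16 held GGGCGG and 3 held TATAAA, those of Kcnj9, Kcnj13 and Kcnj16. The full cAMP response element TGACGTCA was in 0 of the 40 and in 1.55% of all windows, its shorter form TGACG was in 6 and in 17.8%, and the palindromic NFI site was in 0 and in 0.0365%. Kcnj11, Kcnj14, Kcnk3, Kcnk6, Kcnk9, Kcnn2 and Kcnt1 had no entry.

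Kcnj3 served as the reference for the neuronal inward rectifiers, because GIRK1 is the common partner subunit of brain GIRK channels. Of the 8 other genes of this set, 1 was higher than Kcnj3, 6 were lower and 1 did not pass, where 23.1% of all genes tested were higher and 58.7% were lower. In limma, Kcnj9 was 1.54-fold higher, at 0.62 on the log2 scale (SE 0.20, adjusted p = 0.0247), and lay above Kcnj3 in 4 of 4 libraries. By the same limma fit, Kcnj6 was 5.63-fold lower, at -2.49 (SE 0.29, adjusted p = 0.000145), and Kcnj5 was 8.40-fold lower, at -3.07 (SE 0.27, adjusted p = 3.09e-05), each below in 4 of 4 libraries. The Kcnj9 call was lost without replicate 1 (0.69, limma adjusted p = 0.0583), replicate 2 (0.60, adjusted p = 0.0608) or replicate 4 (0.61, adjusted p = 0.0961), and without length correction (0.19, adjusted p = 0.380).

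Genes that act with GIRK channels were mostly above Kcnj3 in level. Of 14 partner genes tested, 8 were higher, 4 were lower and 2 did not pass, beside the 23.1% and 58.7% of all genes. The 14 include Abcc8, a receptor gene of KATP channels, which was among the 4 lower. Gabbr1, a GABA-B receptor subunit, lay at 176 ± 3.43 FPKM (SD, n = 4), 15.3-fold above Kcnj3, and its partner subunit Gabbr2 was 3.33-fold above. Gnao1, the G protein alpha subunit of these receptors in brain, was 11.7-fold above at 135 ± 5.13 FPKM. Rgs4, which speeds G protein shut-off, was 5.85-fold above at 69.8 ± 24.3 FPKM (3.30-fold without length correction) and, like Kcnj9 and Kcnj3, was highest in replicate 3, at 105 FPKM against 52.6 to 67.8.

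The classical strong inward rectifiers of the Kir2 group, which hold neurons and muscle near the potassium potential, were low and changed places between libraries. Kcnj12 was measured at 4.29, 3.37, 6.30 and 4.64 FPKM in replicates 1 to 4, highest in replicate 3. Kcnj4, prominent in the forebrain, was at 2.84, 3.34, 1.83 and 5.10 FPKM, with its extremes in replicates 3 and 4. Kcnj2, found in vessels and neurons alike, was at 3.16, 2.07, 2.21 and 2.38 FPKM, highest in replicate 1. Kcnj14, known from motor neurons of the brainstem and cord, was at 3.61, 1.59, 0.935 and 1.41 FPKM, so replicate 1 stood more than 2-fold above each of the others. Its mean was 1.89 ± 1.18 FPKM (SD, n = 4), and 1.31 ± 0.338 without replicate 1. All 4 genes were lower than Kcnj3 in limma in 4 of 4 libraries, from Kcnj12 at -1.31 (SE 0.20, adjusted p = 0.000629) to Kcnj14 at -2.70 (SE 0.38, adjusted p = 0.000410). Their shares of the class were 38.4% ± 11.8 for Kcnj12, 26.6% ± 9.997 for Kcnj4, 19.98% ± 2.10 for Kcnj2 and 15.0% ± 7.90 for Kcnj14 (SD, n = 4), and that of Kcnj2 was 36.1% without length correction.

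The 2 pore genes of KATP channels were both present, the neuronal one at a higher level. Kcnj11, which pairs with the sulfonylurea receptor Abcc8 in neurons, was at 7.84, 10.2, 9.57 and 8.82 FPKM in replicates 1 to 4. It did not pass against Kcnj3 in limma at -0.33 (SE 0.23, adjusted p = 0.227), being above it in 1 of 4 libraries, but passed as lower without length correction, at -1.06 (adjusted p = 0.00279). Kcnj8, the pore of vascular KATP channels in pericytes and smooth muscle, was at 2.37, 2.11, 2.92 and 2.52 FPKM, and the ranges of Kcnj11 and Kcnj8 did not overlap. In FPKM each pore gene had a higher mean than its receptor gene: Abcc8 lay at 3.72 ± 0.702 FPKM and Abcc9, the vascular receptor, at 1.56 ± 0.160 FPKM (SD, n = 4). Without length correction the order of the vascular pair turned, with Abcc9 1.90-fold above Kcnj8. Kcnj11 took 78.5% ± 2.95 of the FPKM of the pore genes. Mural cell markers, the cells Kcnj8 is known from, summed to 95.3 to 118 FPKM with none of the 6 at 0. Of these markers 1, 3, 2 and 0 were highest in replicates 1 to 4, and Kcnj8 was highest in replicate 3. The part of these cells in its level was not tested.

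The glial and epithelial inward rectifiers were dominated by Kcnj10 and its partner subunit Kcnj16. Kcnj10, the pore of astrocyte and oligodendrocyte potassium buffering, was measured at 84.6, 82.5, 92.7 and 77.6 FPKM in replicates 1 to 4, a narrow range with replicate 3 at its top. Kcnj16, which joins it in heteromers that sense acid, was at 17.8, 17.5, 14.0 and 16.7 FPKM, lowest in replicate 3, where Kcnj10 was highest. Kcnj10 took 82.9% ± 2.31 and Kcnj16 16.3% ± 2.15 of the class (SD, n = 4). Kcnj13, a channel of choroid plexus and retinal pigment epithelium, was at 1.28, 0.380, 0.681 and 1.11 FPKM. Kcnj1 and Kcnj15, known mainly from kidney epithelium, had means of 0.0121 and 0.00880 FPKM and were listed at 0 in 2 libraries and in 1 library, too low for the filter.

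Of the 5 other genes of the glial, epithelial and vascular set, 3 were tested, and all 3 were lower than Kcnj10 in 4 of 4 libraries, where 94.7% of all genes tested were lower and 3.4% were higher. In limma, Kcnj16 was 5.10-fold lower at -2.35 (SE 0.12, adjusted p = 2.71e-06), Kcnj8 32.9-fold lower at -5.04 (SE 0.10, adjusted p = 7.81e-08) and Kcnj13 94.8-fold lower at -6.57 (SE 0.27, adjusted p = 1.09e-06). Since nearly all genes lie below Kcnj10, these calls are close to the background. Of 15 partner genes, mostly of the astrocyte membrane and its contact with vessels, 3 were higher, 9 were lower and 3 did not pass. The 15 include Abcc9, the vascular KATP receptor gene, which was among the 9 lower. Atp1b2, a beta subunit of the glial sodium pump that takes up potassium alongside Kcnj10, was 3.94-fold higher, at 333 ± 22.3 FPKM (SD, n = 4). Slc1a2, the main glutamate transporter, was 1.202-fold higher at 101 ± 2.47 FPKM (0.27, SE 0.09, limma adjusted p = 0.0250), and this call was lost without replicate 1 (adjusted p = 0.0996), replicate 2 (0.103) or replicate 4 (0.0888), while without length correction the gene was 2.58-fold above Kcnj10.

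The K2P genes were headed by Kcnk1 (TWIK1), which is expressed by both astrocytes and neurons. Kcnk1 was measured at 35.9, 36.3, 43.2 and 34.9 FPKM in replicates 1 to 4, with replicate 3 above the rest. Next came Kcnk2 (TREK1), opened by stretch and fatty acids, at 13.2, 13.3, 9.26 and 11.6 FPKM, lowest in replicate 3. The acid-sensitive TASK genes followed at like levels: Kcnk9 at 8.64, 8.45, 6.76 and 8.55 FPKM, and Kcnk3 at 7.89, 7.70, 6.82 and 7.45 FPKM. Each of these values of Kcnk9 and Kcnk3 was also lowest in replicate 3, and their shares of the class were 51.9% and 48.1%, each ± 1.54 (SD, n = 4). Without length correction these shares were 77.7% and 22.3%, because the longest Kcnk9 transcript has 12300 bases and that of Kcnk3 has 3811.

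Kcnk13 (THIK1), the potassium leak of microglia, was among the steadiest of the 38 genes at 6.13, 6.92, 6.80 and 7.02 FPKM. Microglia markers were highest in replicate 2 in 6 of 6 cases and summed to 129 to 158 FPKM with none at 0. Their part in the Kcnk13 level was not tested. Kcnk12, its close relative of unclear function, lay at 2.63 to 3.37 FPKM. Kcnk4 (TRAAK), a mechanosensitive channel of axons, was at 2.04, 1.99, 3.97 and 2.68 FPKM, and Kcnk10 (TREK2) lay between 0.947 and 1.51 FPKM. Exons of Kcnk4 overlap on the same strand with Catsperz, which was also highest in replicate 3, at 2.69 FPKM against 0.718 to 1.56, so reads of the 2 genes may have been shared. Kcnk6, Kcnk5 and Kcnk7 had means of 0.757, 0.338 and 0.111 FPKM, and the Kcnk7 mean rests on about 2.71 fragments per library by this estimate. Kcnk16 and Kcnk18 (TRESK, a channel of sensory neurons) lay under the filter with means of 0.0425 and 0.0117 FPKM and were listed at 0 in 2 libraries each.

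Kcnk1 served as the reference of the K2P set. All 10 of the 12 other K2P genes that could be tested were lower in 4 of 4 libraries, where 86.8% of all genes tested were lower and 8.91% were higher. Kcnk1 had the highest mean of the K2P genes, so a lower level of the others was set by the choice of reference. These calls are also close to the background. The differences in limma ran from Kcnk2, 3.17-fold lower at -1.67 (SE 0.16, adjusted p = 5.19e-05), through Kcnk9 at -2.20 (SE 0.14, adjusted p = 6.04e-06) and Kcnk3 at -2.31 (SE 0.12, adjusted p = 2.10e-06), to Kcnk7 at -7.54 (SE 0.20, adjusted p = 1.51e-07). Without length correction Kcnk9 turned to 0.26 and did not pass in limma (adjusted p = 0.109). Of 11 genes whose proteins bind or regulate K2P channels, 3 were higher, 7 were lower and 1 did not pass. The 3 higher genes were the 14-3-3 genes Ywhaz and Ywhab, which escort TASK channels to the membrane, at 268 ± 7.67 and 222 ± 7.74 FPKM, and the microtubule gene Map2 at 113 ± 14.2 FPKM (SD, n = 4).

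**Figure D2:**
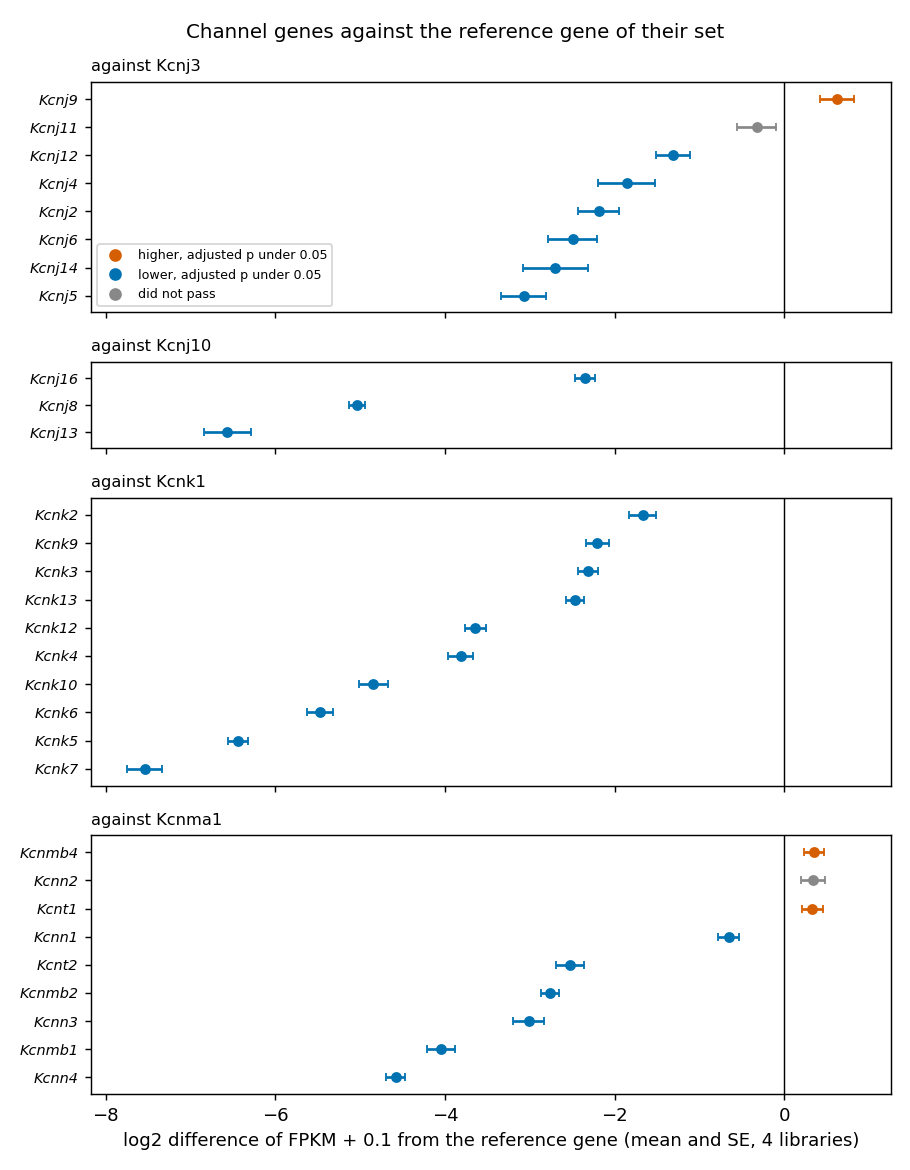
Log2 differences of FPKM + 0.1 from the reference gene within libraries (x axis; mean and SE over 4 libraries) for the 30 tested channel genes, in 4 panels by reference. Kcnj9 lies above Kcnj3 at 0.62 and Kcnmb4 and Kcnt1 lie just above Kcnma1. Every tested K2P gene lies below Kcnk1, which has the highest mean of that set.

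Among the channels opened by calcium or sodium, 4 genes had means between 7.50 and 9.65 FPKM. Kcnma1, the pore of the large-conductance BK channel, was measured at 6.41, 7.24, 8.22 and 8.15 FPKM in replicates 1 to 4. Kcnmb4, the neuronal BK auxiliary subunit that slows gating and makes the channel resist toxin block, was at 8.39, 8.53, 12.4 and 9.30 FPKM, above Kcnma1 in every library. Kcnn2 (SK2), a channel of the after-hyperpolarization, was at 9.18, 10.9, 10.3 and 7.78 FPKM, and Kcnt1 (Slack), opened by sodium, at 9.86, 8.88, 10.04 and 8.96 FPKM. The range of Kcnn2 overlapped with that of Kcnma1, and those of Kcnmb4 and Kcnt1 lay above it. Kcnn1 (SK1) was lower, at 4.02, 3.98, 6.32 and 4.83 FPKM.

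The remaining members of these families were near or under 1 FPKM. Kcnt2 (Slick), the relative of Kcnt1, lay between 0.934 and 1.48 FPKM, and Kcnmb2, which lends BK channels inactivation, between 0.798 and 1.14. Kcnn3 (SK3), which limits firing in dopamine neurons, was at 0.447, 1.11, 1.18 and 0.807 FPKM, with replicate 1 below the rest. Kcnmb1, the auxiliary subunit of arterial smooth muscle, lay between 0.266 in replicate 4 and 0.433 FPKM in replicate 1. Arterial smooth muscle markers were highest in replicate 1 in 4 of 5 cases and summed to 67.1 FPKM there against 48.8 to 56.4, with none at 0. Their part in the Kcnmb1 level was not tested. Kcnn4, the intermediate-conductance channel of blood and immune cells, lay between 0.184 and 0.275 FPKM.

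Against Kcnma1, 2 of the 9 other genes were higher, 6 were lower and 1 did not pass, where 36.2% of all genes tested were higher and 53.7% were lower. In limma, Kcnmb4 was 1.27-fold higher at 0.35 (SE 0.12, adjusted p = 0.0265) and Kcnt1 1.26-fold higher at 0.33 (SE 0.12, adjusted p = 0.0364), each in 4 of 4 libraries. Kcnn2 was above in 3 of 4 libraries and did not pass in limma at 0.34 (SE 0.14, adjusted p = 0.0567). In the same limma fit Kcnn1 was 1.58-fold lower at -0.66 (SE 0.12, adjusted p = 0.00177), Kcnn3 8.08-fold lower at -3.01 (SE 0.18, adjusted p = 5.25e-06) and Kcnmb1 16.5-fold lower at -4.05 (SE 0.16, adjusted p = 9.41e-07). The limma adjusted p of Kcnmb4 lay between 0.0568 and 0.0992 and that of Kcnt1 between 0.0606 and 0.119 when any 1 replicate was left out, and Kcnn2 passed as higher without replicate 4 (0.47, adjusted p = 0.0298). Without length correction all 3 changed sign and passed as lower, Kcnmb4 at -2.55, Kcnn2 at -1.38 and Kcnt1 at -0.53.

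By share of FPKM, Kcnn2 took 61.9% ± 5.67 of the SK and IK class, Kcnn1 31.0% ± 5.11, Kcnn3 5.64% ± 1.65 and Kcnn4 1.44% ± 0.397 (SD, n = 4). Kcnt1 took 88.5% ± 2.08 of the sodium-activated pair. In the BK class Kcnmb4 took 51.8% ± 3.21 and Kcnma1 40.6% ± 2.53, but without length correction Kcnma1 took 81.8% and Kcnmb4 14.1%, since the longest annotated transcripts have 12094 and 1626 bases. Of 12 tested genes that act with these channels, 7 were higher than Kcnma1, 3 were lower and 2 did not pass, beside the 36.2% and 53.7% of all genes. Without length correction 3 were higher and 5 were lower. Calm2 and Calm3, which encode calmodulin, the calcium sensor of SK channels, lay at 858 ± 42.9 and 504 ± 22.6 FPKM (SD, n = 4), 113-fold and 66.5-fold above Kcnma1. Without length correction they lay 11.3-fold and 12.6-fold above it.

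**Figure D3:**
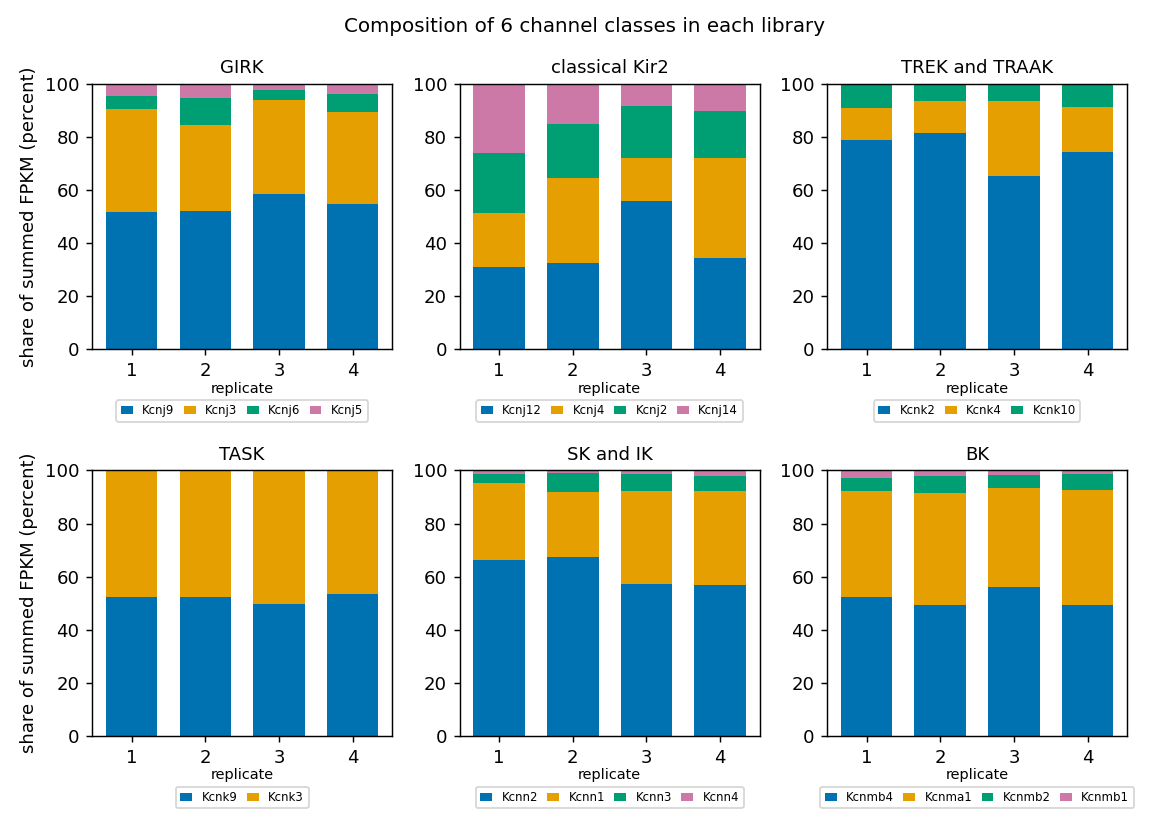
Share of each gene in the summed FPKM of its class (y axis, percent) in each library (x axis) for 6 channel classes. Kcnj9 and Kcnj3 fill most of the GIRK bars in all libraries, while the Kir2 bars change between libraries, with Kcnj14 at 26.0% in replicate 1 and Kcnj12 at 55.9% in replicate 3.

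How far the 4 libraries lay apart was measured for each channel gene. The 34 tested genes had a median SD of 0.25 log2 units, against 0.17 for all genes tested. A coefficient of variation under 20% was found for 20 of them, and the share of all genes under that limit was not taken. The limma variance test, which sets each gene against genes of like level, called 0 of the 34 genes and 0% of all 17630. Since it called no gene at all, this result does not show that the channel genes were steady. At an unadjusted p under 0.05 this limma test took 4 of the 34, beside 5.85% of all genes, and these were Kcnj9 (variance ratio 11.2, adjusted p = 0.643), Kcnj14 (10.8, adjusted p = 0.655), Kcnj4 (10.3, adjusted p = 0.673) and Kcnj3 (6.43, adjusted p = 0.834). With a limma prior without trend or robust estimation, 0 of the 34 and 5.67% of all genes had an unadjusted p under 0.05. The steadiest of the 38 were Kcnk13, Kcnk3, Kcnt1 and Kcnj10, with coefficients of variation of 6.00%, 6.24%, 6.37% and 7.48%.

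Replicate 3 was the library in which most channel genes were at their highest, 13 of the 34, or 38.2%, where 22.5% of all genes tested were highest there. Against the mean of the other 3 libraries, 6 of the 34 were more than 0.5 log2 units higher in replicate 3: Kcnk4 by 0.81, Kcnj9 by 0.69, Kcnj12 by 0.62, Kcnn3 by 0.60, Kcnn1 by 0.56 and Kcnj3 by 0.55. In the same library 2 of the 34 were lower by more than that, Kcnj14 at -1.03 and Kcnj4 at -0.96. Of all genes tested, 7.31% were higher and 9.96% were lower by this measure. The median over the 34 genes was 0.05, and over all genes tested it was -0.05. The summed FPKM of the GIRK class was 28.0, 27.6, 43.1 and 32.9 in replicates 1 to 4. Replicate 3 is the library with 8 of 8 thalamus markers highest and none at 0, led by Cplx1 at 516 FPKM against 354 to 501 and, chosen after its values were seen, with Prkcd at 172 against 3.72 to 13.4, and oligodendrocyte markers were also highest there in 7 of 8 cases, with a sum of 8696 against 5994 to 8098 FPKM. The sum of the lateral hypothalamus markers was lowest in this library, at 179 against 446 to 764 FPKM, though 2 of the 5 were highest there. The part of any of these tissues or cells in the channel levels was not tested. Without replicate 3 the mean of Kcnj9 was 15.6 ± 2.08 and that of Kcnj3 10.4 ± 1.30 FPKM (SD, n = 3).

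**Figure D4:**
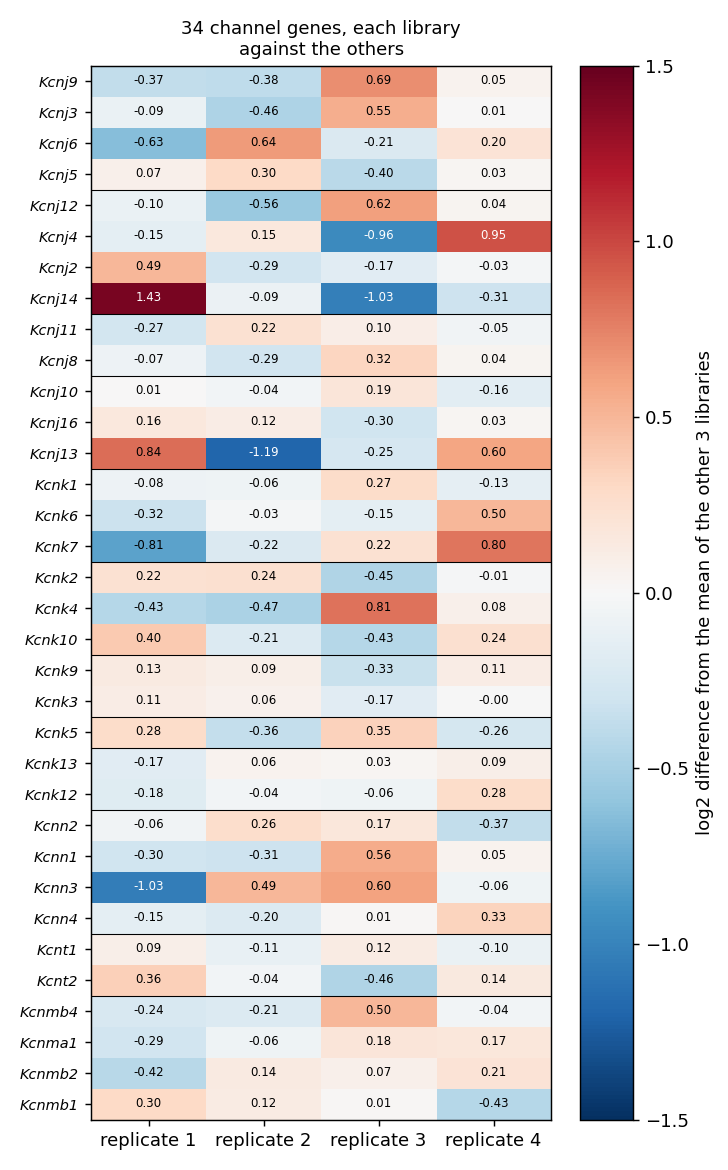
Log2 difference of FPKM + 0.1 of each of the 34 tested channel genes (rows, by class) between 1 library and the mean of the other 3 (columns; red higher, blue lower, values printed). Kcnj14 in replicate 1 at 1.43 and Kcnj4 in replicate 4 at 0.95 are the reddest cells, and Kcnj9, Kcnj3 and Kcnj12 are red together in replicate 3 at 0.69, 0.55 and 0.62.

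Set against the other libraries, replicate 1 was higher in Kcnj14 by 1.43 log2 units and in Kcnj13 by 0.84, while Kcnn3 was at -1.03, Kcnk7 at -0.81 and Kcnj6 at -0.63. This library held the hindbrain and spinal cord markers, 6 of 6 highest, with the glycine transporter gene Slc6a5 at 4.83 FPKM against 0.0745 to 0.361. It was also highest in 5 of 5 blood markers, with a sum of 44.4 FPKM against 2.75 to 15.3. In replicate 2, Kcnj6, which dopamine neurons of the midbrain express strongly, was higher by 0.64 and Kcnn3 by 0.49, in the library with 7 of 8 dopamine markers highest. Aldh1a1, the most abundant gene of that list, was at 255 FPKM there against 155 to 203. The same library was highest in 6 of 8 medial hypothalamus markers, with a sum of 179 FPKM against 9.50 to 31.0, and in 4 of 6 pituitary markers, with a sum of 43.2 FPKM against 4.38 to 11.4. In that library none of the former and 1 of the latter was listed at 0. Pomc, at 30.1 FPKM there, is in both lists. Of the other pituitary markers highest there, Cga was at 12.1 FPKM, and Gh and Prl were only at 0.213 and 0.0510 FPKM. For Kcnn3, however, replicate 3 was higher than replicate 2, with 1.18 against 1.11 FPKM. Kcnj6 was higher in replicate 4 than in replicates 1 and 3, at 2.17 against 1.37 and 1.73 FPKM, while the dopamine sum was lowest in replicate 4, at 497 FPKM. Kcnj9 was lowest in replicate 2, at 14.4 FPKM. The thalamus sum of 520 FPKM there was above those of replicates 1 and 4, 381 and 414, but Cplx1 alone made up 501 FPKM of it. By the median log2 difference of the thalamus markers from the other libraries, replicate 2 was lowest, at -1.35. Replicates 1, 4 and 3 followed at -0.66, -0.28 and 2.31, which is also the order of Kcnj9. As for Kcnj6, the order of Kcnj13 did not follow that of its list. The choroid plexus list summed to 57.2 FPKM in replicate 4 against 7.70 to 9.40, with none of its 6 genes at 0 and with Ttr at 49.7 FPKM there. Kcnj13 also shares exon sequence with Gigyf2 on the opposite strand, which lay between 6.60 and 6.99 FPKM. In all, 14 of the 38 genes share exon bases with another annotated gene, 13 of them on the opposite strand, and without knowledge of strand use such reads cannot be told apart. In none of these cases was the part of the marked cells in the channel level tested.

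**Figure D5:**
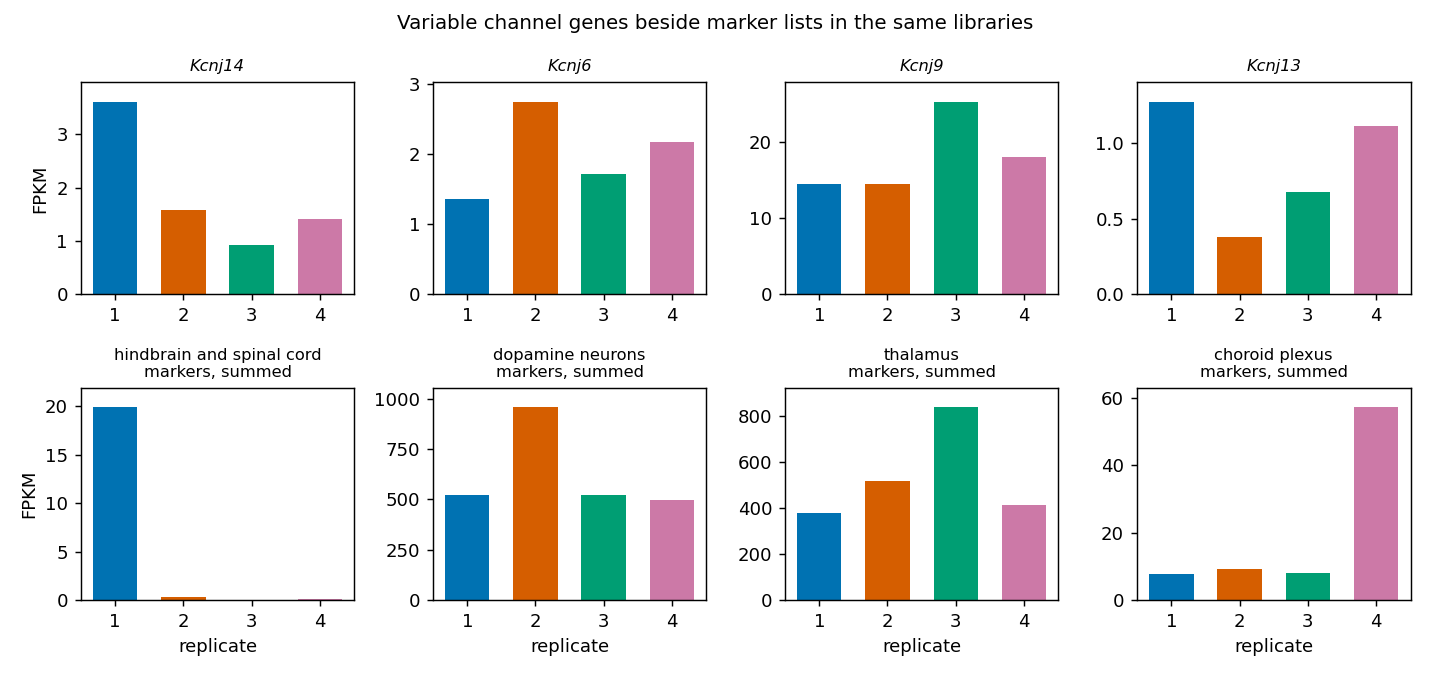
FPKM (y axes, from 0) of Kcnj14, Kcnj6, Kcnj9 and Kcnj13 in each library (top row) and summed FPKM of a marker list in the same libraries (bottom row). Kcnj14, Kcnj6 and Kcnj9 are highest in the library where the list below them is highest, and Kcnj13 is highest in replicate 1 while the choroid plexus sum is highest in replicate 4. In the remaining libraries Kcnj6 does not keep the order of its list. Kcnj9 does not keep the order of the thalamus sum, of which Cplx1 made up 501 of 520 FPKM in replicate 2. It keeps the order of the median log2 difference of that list, which is not drawn.

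Several of the channel genes are neighbours on a chromosome, and some adjacent genes differed widely in level. Neighbouring genes in general were not compared. Coordinates are those of GENCODE M21 on GRCm38. Kcnj9 (ENSMUSG00000038026) and Kcnj10 (ENSMUSG00000044708) lie head to head between 172320501 and 172374085 on chromosome 1, 11891 bases apart, and the glial gene had a mean 4.67-fold above the neuronal one. Kcnj16 and Kcnj2 lie in the same direction on chromosome 11, 38195 bases apart, with Kcnj16 6.71-fold above. Kcnj6 and Kcnj15 share a stretch of chromosome 16 with 259856 bases between them, and Kcnj15 lay under the filter while Kcnj6 was at 2.003 FPKM. Kcnj5 and Kcnj1 on chromosome 9 made the same kind of pair, with Kcnj5 at 1.28 FPKM and Kcnj1 under the filter. The KATP pore genes each adjoin the gene of their own receptor, Kcnj11 beside Abcc8 on chromosome 7 with 3758 bases between them and Kcnj8 beside Abcc9 on chromosome 6 with 16247. There the pore gene lay 2.45-fold and 1.59-fold above the receptor gene in FPKM. Without length correction Kcnj11 lay 1.57-fold above Abcc8, and Kcnj8 lay below Abcc9, as given above. No protein-coding gene lies between the members of any of these pairs.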

How the data were processed

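RNA sequencing of 4 naive parasubthalamic samples was used, with 1 table per sample. The deposited tables give 1 value per gene and library, and the authors' unit is not named in the file headers. The values are read here as FPKM, as deposited by the authors, because low values cluster near steps that scale with gene length. The processing notes of the submitters name the mouse build GRCm38, while for aligner, counter, gene lengths and strand use the entry is: not given in the sources used here. Between 27.6% and 31.1% of low values lay within 0.05 of whole steps, so counts were not recovered and no count test was run.

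Within each library the log2(FPKM + 0.1) of a reference gene was subtracted from that of each other gene, for the 17630 entries with a mean of 0.1 FPKM or more. Differences understate folds of low genes. The intercept over 4 libraries was tested with limma 3.58.1 in R 4.3.3, 2-sided, with Benjamini-Hochberg adjustment over the 17629 other genes and a threshold of 0.05. The prior degrees of freedom were limited to 3.78, those of a trended fit of the genes' own levels. The trend was chosen after values from a fit without it (1.63) had been seen, and that fit is kept as an added alternative. Spread was tested against limma's trended, robust prior with its common degrees of freedom, 1-sided, and that choice was also made after a first run. Both tests were tested on simulated data. Shares are of summed FPKM, without a test. Gene coordinates are from GENCODE M21.

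The channel genes, references, partner and marker lists were chosen with earlier results of these data known. All channel genes are named, with the 3 most abundant partners of each list, up to 5 that passed as higher, and the most abundant marker of a list where one is named. Values of 2 partner genes that this rule would name are not reported here. Abcc8 and Abcc9 are named as receptors of the KATP pore genes, and Catsperz, Gigyf2 and Prkcd were chosen after their values were seen. Alternatives were other pseudocounts and filters, other priors, no length correction, median centring and leaving out each replicate.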

Additional observations from a re-analysis of the deposited data

Results flagged for a closer look

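Among the 34 channel genes examined, 2 had 1 library far from the other 3, in a test that marks about 5% of genes by chance. This count is close to what that rate gives. Kcnk1 was highest in replicate 3 at 43.2 FPKM, while the other libraries lay between 34.9 and 36.3 FPKM, so that the gap made up 0.838 of the range. Kcnk9 was lowest in replicate 3 at 6.76 FPKM, while the others lay between 8.45 and 8.64 FPKM, a gap of 0.900 of the range. Replicate 3 is the library with all 8 thalamus markers highest, and the part of that tissue in these values was not tested.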

How the results depend on the processing

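No paired analysis was possible because all 4 samples form 1 group. Of the differences from a reference gene under the alternatives, 844 kept direction and side of the threshold, 24 lost their call, 8 gained one and 15 changed sign, and the cause of these changes was not tested. Part of the 844 could not change. With no limit on the prior, the fits against Kcnj10, Kcnk1 and Kcnma1 were the reported ones, and another filter left each estimate as it was. Of the 15 sign changes, 12 arose without length correction. Without length correction, the log2 difference changed sign for Kctd12 (0.00816), Gja1 (-0.45), Kcnk9 (0.26), Psd (0.76), Kcnn2 (-1.38), Kcnt1 (-0.53), Kcnmb4 (-2.55), Lrrc55 (-1.28), Csnk2a1 (-0.0467), Csnk2b (-0.0879), Fmr1 (-0.999) and Itpr1 (-0.18). That setting left 0 channel genes above Kcnj3, 0 above Kcnma1, and 3 partner genes above and 5 below Kcnma1, and it moved 20 of 37 shares by more than 1 SD. It moved 48 of 82 differences by more than 1.5-fold, 21 of the 30 for channel genes among them. With no filter 5 channel genes were lower than Kcnj10, since more genes were tested. With a filter of a mean of 1 FPKM, 4 partner genes were lower than Kcnk1 and 3 channel genes lower than Kcnma1, since fewer were tested.

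Leaving out 1 replicate at a time gave between 0 and 1 channel gene above Kcnj3 and between 0 and 1 above Kcnma1. It changed the sign of Mlc1, which ranged from -0.0590 to 0.0600, Gja1, which ranged from -0.0154 to 0.0652, and Psd, which ranged from -0.122 to 0.101. Kcnn2 passed against Kcnma1 with a pseudocount of 1 (0.31, limma adjusted p = 0.0467) and with the filter of a mean of 1 (adjusted p = 0.0495). The spread test called 0 channel genes under each alternative. With the reported settings it called 0% of all 17630 genes, so these results do not show that the channel genes were steady. The prior without trend, added after the values were seen, changed no call. Small differences rest on 4 libraries, and levels under 0.1 FPKM rest on a few fragments.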
